A study of Caenorhabditis elegans with 2 samples.

Results

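The peaks described here are reproducible peaks of eGFP-NHR-11 that fell below the irreproducible discovery rate threshold. Of 13299 pooled peaks, 13271 lay on the nuclear chromosomes, 254 of these were in the thresholded list, and 418 others overlapped by at least 1 bp one of the 2000 strongest peaks of replicate 1 and one of the 2000 strongest of replicate 2. Those 418, called below-threshold peaks here, make up 3.21% of the unthresholded nuclear peaks. The same replicate rule was met by 4.78% of all nuclear pooled peaks and by 85% of the thresholded ones. The remaining 12599 unthresholded nuclear peaks are called the other unthresholded peaks.

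The data are peak lists from ChIP-seq of whole, mixed sex L2 larvae of C. elegans strain OP305, in 2 biological replicates of 1 technical replicate each, with fragments of 150 to 350 bp. The strain carries the transgene wgIs305, the source of the eGFP-tagged NHR-11, together with the unc-119(ed3) III allele. Both replicates form 1 group, so no contrast between conditions was possible, and peaks are not replicates of a condition. A whole animal mixes all cell types, so a peak cannot be assigned to a tissue, and a tagged transgene need not match the native gene in level. The replicate lists held 25831 peaks in replicate 1 and 27015 in replicate 2, without read counts, so the depth behind each peak is unknown.

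NHR-11 belongs to the nuclear hormone receptors, zinc-finger transcription factors that bind DNA and in many cases a small lipophilic ligand; the family is greatly expanded in nematodes. The irreproducible discovery rate (IDR) procedure is designed to rank the peaks of replicates against each other and to keep those whose ranks hold up. Its settings for the thresholded list were not given in the sources used here. Transfer RNA, small nuclear, small nucleolar and micro RNA genes, called short RNA genes here, are compact, often highly transcribed genes with open chromatin, and many unrelated factors give peaks at them.

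The sequences that carry the results below are windows that reach 50 bp to either side of peak summits, printed 5′ to 3′ on the plus strand of ce11, from the RefSeq genome WBcel235. The first set shows the strongest below-threshold peaks in promoter windows with the hexamer GAGAGA on either strand, because this was the most frequent of the non-T-run motifs searched; capitals mark the matches.
Y54G11A.2, chrII:14251602-14251702: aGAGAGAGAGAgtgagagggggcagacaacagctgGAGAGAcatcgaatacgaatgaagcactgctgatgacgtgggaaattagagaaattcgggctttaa
ntl-2, chrII:4376736-4376836: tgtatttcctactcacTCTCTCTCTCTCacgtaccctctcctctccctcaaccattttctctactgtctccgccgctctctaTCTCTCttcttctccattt
eef-1A.2, chrX:7823231-7823331: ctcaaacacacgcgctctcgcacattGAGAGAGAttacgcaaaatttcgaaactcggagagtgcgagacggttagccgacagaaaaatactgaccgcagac
R02F2.1, chrIII:5504256-5504356: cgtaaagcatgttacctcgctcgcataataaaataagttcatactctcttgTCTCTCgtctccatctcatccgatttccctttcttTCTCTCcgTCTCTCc

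The next set shows the strongest windows with the palindromic E-box CACGTG in capitals, the motif whose share stood furthest above both the thresholded and the other unthresholded peaks. A label can be that of the nearest gene only, as at nhr-21, which had no below-threshold peak in its promoter window.
E01G4.3, chrII:13462117-13462217: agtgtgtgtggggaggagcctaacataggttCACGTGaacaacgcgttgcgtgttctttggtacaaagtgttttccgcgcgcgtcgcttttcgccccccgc
calu-1, chrX:4971724-4971824: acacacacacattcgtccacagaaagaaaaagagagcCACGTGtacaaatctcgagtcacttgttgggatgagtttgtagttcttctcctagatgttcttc
pkg-2, chrIV:8527810-8527910: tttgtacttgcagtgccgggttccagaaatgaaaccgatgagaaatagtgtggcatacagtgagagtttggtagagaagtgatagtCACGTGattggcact
nhr-21, chrII:7337473-7337573: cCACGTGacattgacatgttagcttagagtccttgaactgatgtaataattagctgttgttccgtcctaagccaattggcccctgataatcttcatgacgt

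The octamer CTGCGTCT, common in C. elegans regions at which many factors give peaks, is in capitals in the strongest 3 windows that hold it; its reverse complement is marked at myrf-1.
myrf-1, chrII:10501727-10501827: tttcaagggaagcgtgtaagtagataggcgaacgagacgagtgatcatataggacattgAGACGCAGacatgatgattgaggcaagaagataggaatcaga
mdt-26, chrII:5661923-5662023: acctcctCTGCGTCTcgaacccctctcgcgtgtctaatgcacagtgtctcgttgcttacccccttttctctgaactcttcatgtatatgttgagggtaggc
jun-1, chrII:9112973-9113073: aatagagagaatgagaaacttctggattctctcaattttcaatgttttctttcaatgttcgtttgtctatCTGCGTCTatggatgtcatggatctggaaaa

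The windows of the 2 strongest below-threshold peaks with a summit inside a tRNA gene are shown in lower case throughout, since neither holds a match to the B-box core GTTCGANTC. The F42D1.t1 window ends at ggttca, and the K06A4.t1 window holds gttcaattc, with A where the pattern has G. The lack of an exact match thus does not show that these genes lack a B box.
F42D1.t1, chrX:14804832-14804932: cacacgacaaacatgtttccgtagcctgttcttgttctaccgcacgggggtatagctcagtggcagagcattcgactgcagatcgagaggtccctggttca
K06A4.t1, chrV:9503569-9503669: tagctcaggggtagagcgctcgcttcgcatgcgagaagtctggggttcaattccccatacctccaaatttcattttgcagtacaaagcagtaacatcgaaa

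The last pair sets a below-threshold peak in an intron nearest to Y41G9A.17 beside the thresholded peak that it overlaps, because many below-threshold peaks lay beside a stronger one. Capitals mark the longest run of bases that the 2 windows share, 20 bases, which occurs at a different place in each; the summits were 206 bp apart.
Y41G9A.17, below threshold, chrX:2997256-2997356: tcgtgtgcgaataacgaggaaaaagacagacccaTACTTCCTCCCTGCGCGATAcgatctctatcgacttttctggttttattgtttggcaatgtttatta
Y41G9A.17, thresholded, chrX:2997050-2997150: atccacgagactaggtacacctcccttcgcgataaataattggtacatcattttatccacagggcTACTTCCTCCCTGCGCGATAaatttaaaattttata

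The rule used the pooled list, the thresholded list and the rank of each replicate peak by signal value, the peak caller's own measure of enrichment, so signals and ranks describe the below-threshold peaks and test nothing. Their pooled signal ranged from 8.39 to 27.4 with a median of 19.7, against medians of 33.0 in thresholded and 10.5 in other unthresholded peaks. The best ranked one stood at pooled rank 281 with a signal of 27.43, and the last thresholded nuclear peak stood at rank 280 with 27.45. Adjacent in rank, those 2 peaks carried the same minus log10 q-value of 2.77, a value shared by every thresholded nuclear peak, by 13 below-threshold peaks and by 2 other unthresholded peaks. Every thresholded nuclear peak thus had a higher pooled signal than every below-threshold peak, and 38 of the 254 did not meet the replicate rule. Differences between these 2 sets below therefore cannot be told apart from differences that go with pooled signal. At the replicate edge, the 2000th and 2001st peaks had signals of 10.2338 and 10.2336 in replicate 1 and of 7.86661 and 7.86483 in replicate 2. The last below-threshold peak inside that edge had replicate ranks of 1993 and 1860 and lay in an intron nearest to pkg-2, and the first peak outside it had ranks of 2001 and 768.

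Reproducible below-threshold peaks were concentrated just under the threshold but reached far down the list. They made up 127 of the 219 unthresholded nuclear peaks of pooled rank 281 to 500 (58.0%), and 115 of 500 in ranks 501 to 1000 (23%). Below that they made up 112 of 3999 in ranks 1001 to 5000 (2.80%) and 64 of 8299 at lower ranks (0.771%). The pool was made from the replicates whose ranks the rule used, so this fall with pooled rank describes the rule and tests nothing. The reach down the list came mostly from peaks that overlapped a stronger pooled peak, which were 61 of the 112 and 56 of the 64, against 6 of the 127 and 12 of the 115 above. The median rank of all 418 was 737.5 in replicate 1 and 710.5 in replicate 2. The worse of a peak's 2 replicate ranks had a median of 1185, against 458.5 in the thresholded peaks with an overlapping peak in both replicates.

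**Figure D1:**
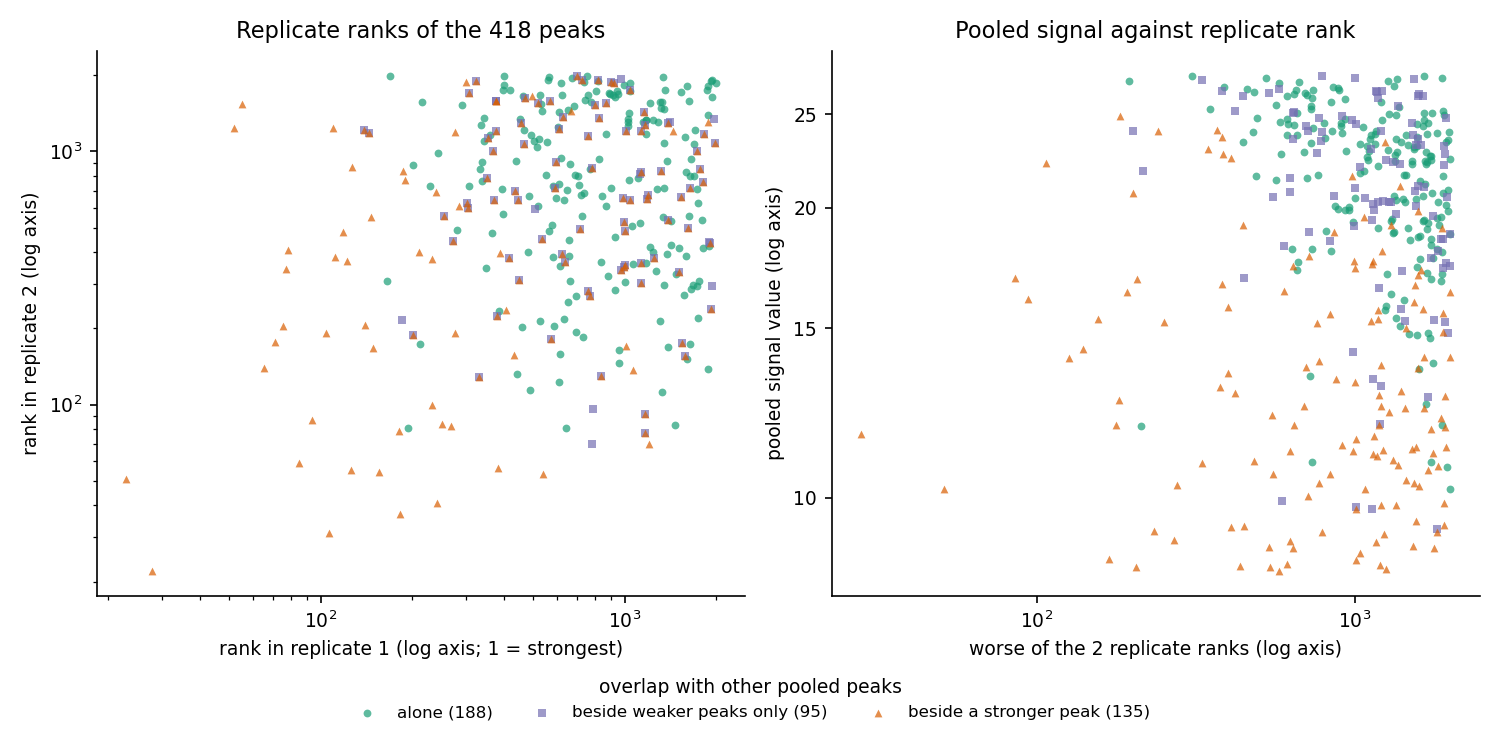
Left, rank of each of the 418 below-threshold peaks in replicate 1 (x) and replicate 2 (y), both on log axes; right, pooled signal value (y, log axis) against the worse replicate rank (x, log axis), with 1 point per peak. Peaks overlapping no other pooled peak (188, circles) crowd the weak-rank corner, and peaks beside a stronger pooled peak (135, triangles) include the points of best replicate rank and lowest pooled signal.

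The peaks fell into 3 kinds by their neighbours in the pooled list. Of the 418, 188 overlapped no other pooled peak, 95 overlapped only weaker ones, and 135 overlapped a stronger one, which in 44 cases was a thresholded peak. Overlap with any other pooled peak was found for 55.02% of below-threshold peaks (95% Wilson interval 50.2 to 59.7), 25.2% of thresholded and 14.2% of other unthresholded peaks. Because all below-threshold peaks were 430 bp wide and replicate peaks 396 or 476 bp, 1 replicate peak could meet the rule for several pooled peaks. The 418 peaks rested on 333 distinct peaks of replicate 1 and 328 of replicate 2, and 44 of them took in each replicate a peak that also overlapped a thresholded peak. Merged where they overlapped, they formed 330 regions, 87 of which held several and none more than 3.

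The 135 peaks beside a stronger one lay mostly on 1 side of it. In 125 of 135 (92.6%, 86.9 to 95.9) the below-threshold summit had the higher coordinate, against 5 of 6 among thresholded peaks beside a stronger peak and 674 of 909 (74.1%, 71.2 to 76.9) among the other unthresholded ones. Summits were 199 to 392 bp apart with a median of 212 bp. The median pooled signal of the 135 was 12.4, against 24.4 for their stronger neighbours. The replicate peak that met the rule had its summit nearer the stronger neighbour in 105 of 135 cases in replicate 1 and in 100 of 135 in replicate 2. It covered the neighbour's summit in 118 cases in replicate 1 and 119 in replicate 2. Coordinate direction has no relation to gene strand, and what set the side was not tested.

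**Figure D2:**
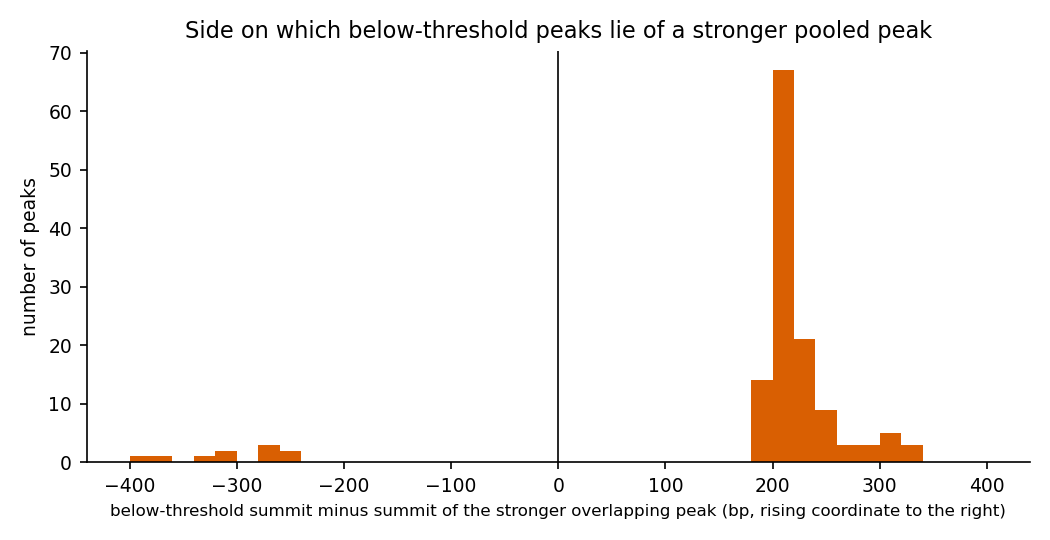
Distance in bp from the summit of the stronger overlapping pooled peak to the summit of the below-threshold peak (x, rising coordinate to the right) against number of peaks (y), for the 135 below-threshold peaks beside a stronger one. Of these, 125 lie to the right, most between 199 and 255 bp away, and 10 lie to the left.

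The 10 below-threshold peaks of best replicate rank were all beside a thresholded peak. The peak 42 bp upstream of dpf-3, which encodes a dipeptidyl peptidase, had a pooled signal of 11.7 and ranks of 28 in replicate 1 and 22 in replicate 2, and its thresholded neighbour had a pooled signal of 76.1. The Y41G9A.17 peak printed above had a pooled signal of 10.2 and ranks of 23 and 51, beside a neighbour at 84.2. The peak 313 bp upstream of tba-2, an alpha tubulin gene, had a pooled signal of 14.3 with ranks of 65 and 140, and that near snr-4, which encodes an Sm protein of the spliceosome, had 15.3 with ranks of 156 and 54. In each of these 4 cases the replicate ranks were high and the pooled signal was low. As given above, 44 below-threshold peaks took in each replicate a peak that also overlapped a thresholded peak. In the 44 beside a thresholded peak, the replicate summit lay a median of 199 bp away in replicate 1 and 184.5 bp in replicate 2. The thresholded summit was a median of 204.5 bp away, so such ranks can be those of the stronger neighbour. The other 6 lay nearest to C41A3.2, F45D3.2 and sup-26, in the promoter windows of Y75B8A.23 and tim-1 and of pro-1, and near the tRNA gene C04A11.t1. Their pooled signals ran between 8.64 at pro-1 and 22.2 at F45D3.2, with neighbours between 35.6 and 58.0. Without the peaks beside a stronger one, the best replicate ranks were those of mdt-26, at 194 and 81, and of chd-7, at 201 and 189.

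At the low end, the 5 weakest below-threshold peaks had pooled signals between 8.39 and 8.49 and all lay beside a stronger peak. The weakest, nearest to F53F1.6, stood at pooled rank 13153. It shared its replicate peaks, of ranks 575 and 181, with a stronger below-threshold peak 225 bp away, nearest to cut-2, a cuticlin gene, at 26.6. The peak 21 bp downstream of the 5′ end of egl-30, which encodes a Gq alpha subunit, had a pooled signal of 8.47 and ranks of 75 and 205, beside a thresholded peak at 44.0.

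The strongest below-threshold peaks lay at promoters, in introns and at tRNA genes. A summit was placed in a promoter window when it lay between 1000 bp upstream and 500 bp downstream of an annotated protein-coding 5′ end. The first, 169 bp upstream of plin-1, the perilipin of lipid droplets, and 638 bp upstream of W01A8.2, had a signal of 27.4 in the pool, 13.2 (rank 785) in replicate 1 and 18.03 (rank 96) in replicate 2. The next, 705 bp upstream of Y54G11A.2, had 27.4 in the pool, 20.6 (rank 165) in replicate 1 and 12.6 (rank 307) in replicate 2. Adjacent in pooled rank, these 2 peaks were ranked better by different replicates. The peak 109 bp upstream of C05G5.2 had a pooled signal of 27.4 with ranks of 932 and 1644, and that upstream of aex-5, a proprotein convertase gene, had 27.3 with ranks of 526 and 213. The ntl-2 peak, upstream of a gene for a CCR4-NOT deadenylase subunit, had 27.3 with the uneven ranks of 1878 and 138.

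Further down the strongest 20, introns held the peaks nearest to myrf-1, a membrane-bound transcription factor gene (27.2, ranks 1531 and 658), to let-526, a SWI/SNF chromatin remodelling subunit gene (27.1, ranks 331 and 129), and to mdt-26, a Mediator subunit gene (27.1, ranks 194 and 81). The mdt-26 peak ranked highest of these 3 in both replicates. The peak 241 bp upstream of atp-2, the beta subunit of ATP synthase, also lay in the windows of C34E10.10 and C34E10.12. It had 26.97 in the pool, ranks of 576 and 511, and replicate summits 1 bp apart. The peak upstream of tag-340 and nhl-2, a TRIM-NHL gene that acts with microRNAs, had 26.7 with ranks of 335 and 851. The peak 373 bp upstream of eef-1A.2, an elongation factor gene, had 26.5 with ranks of 459 and 203 and that 861 bp upstream of nhr-66 had 26.6 with ranks of 884 and 323. The remaining peaks of the strongest 20 were nearest to rap-1, T28F4.1 and cut-2, upstream of R02F2.1, and at 4 tRNA genes.

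A larger share of below-threshold than of other unthresholded peaks lay in promoter windows, and a difference from thresholded peaks was not detectable. The share was 53.3% of below-threshold peaks (223 of 418; 48.6 to 58.1), 49.6% of thresholded peaks (126 of 254; 43.5 to 55.7) and 38.2% of the other unthresholded peaks (37.3 to 39.0), with 38.9% over all nuclear pooled peaks. The difference was 3.74 points from the thresholded peaks (95% Newcombe interval −4.02 to 11.5) and 15.2 points from the other unthresholded ones (10.3 to 19.98). The first interval includes 0 and does not show that the shares are equal. Windows of genes on both strands were shared by 11.5% of below-threshold, 13.8% of thresholded and 4.76% of other unthresholded peaks. The nearest protein-coding 5′ end was a median of 724.5 bp from below-threshold summits, 826 bp from thresholded and 1119 bp from other summits.

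Since below-threshold peaks were stronger than most unthresholded peaks, those of pooled rank 281 to 1000 were set beside the other unthresholded peaks of the same ranks. There 56.2% of 242 below-threshold peaks and 47.2% of 477 others lay in promoter windows, a difference of 9.03 points (1.30 to 16.6). Short RNA genes were near 16.1% of these below-threshold peaks and 17.6% of the others, a difference of −1.49 points (−6.997 to 4.55). In this range the promoter share was higher among peaks that met the replicate rule, and a difference in the short RNA share was not detectable at this number of peaks. The sets were not matched within the range: the median pooled rank was 488.5 (456 to 522) in below-threshold peaks and 710 (679 to 739) in the others, and the part of that in the promoter difference was not tested. These intervals cover counting error over peaks only, and overlapping peaks share reads.

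**Figure D3:**
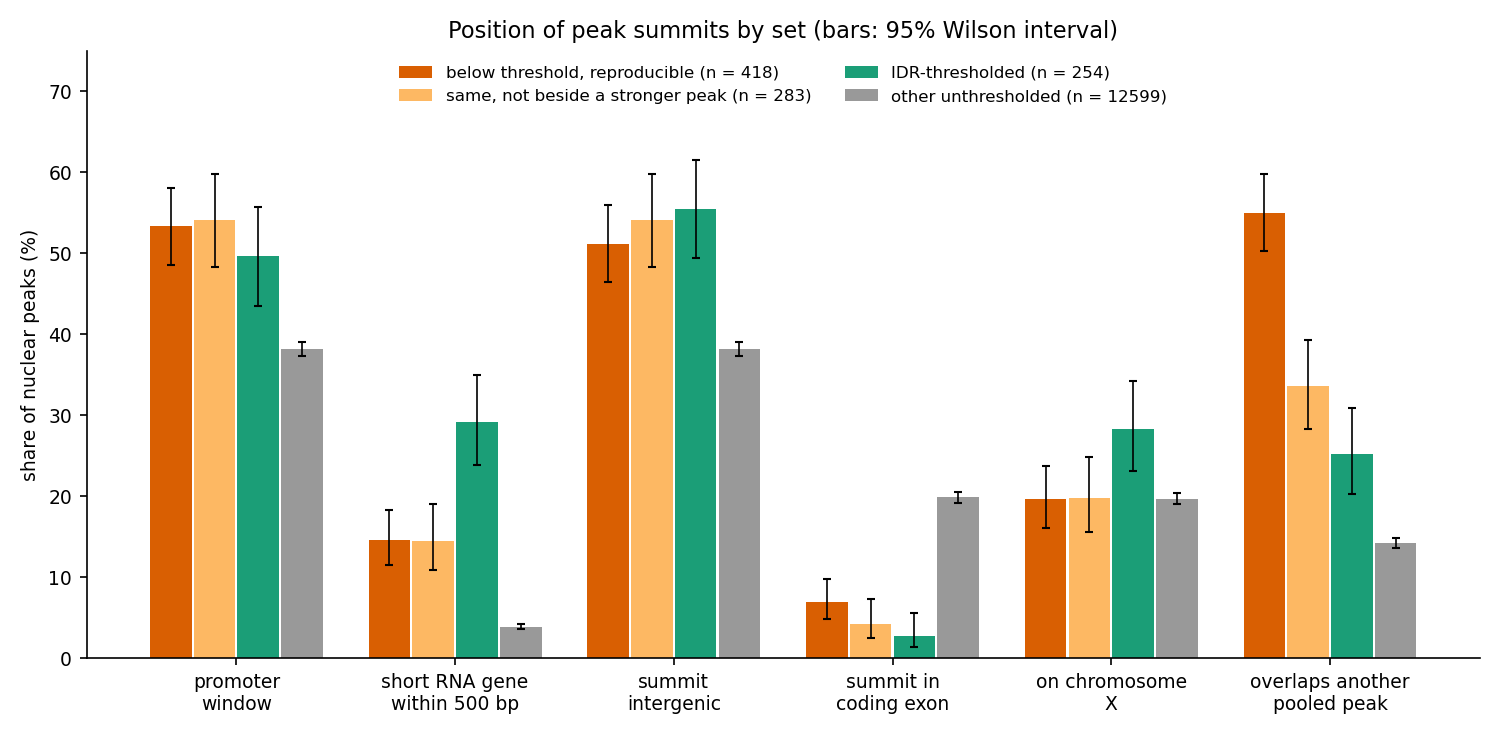
Share of nuclear peaks in % (y) with each position feature (x) for all 418 below-threshold peaks, the 283 not beside a stronger peak, the 254 thresholded peaks and the 12599 other unthresholded peaks; lines are 95% Wilson intervals. Below-threshold and thresholded peaks are close in promoter share (53.3% and 49.6%) and apart in short RNA gene share (14.6% and 29.1%).

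Short RNA genes were near a smaller share of below-threshold than of thresholded peaks. A summit lay within 500 bp of one in 14.6% of below-threshold peaks (61 of 418; 11.5 to 18.3), 29.1% of thresholded peaks (74 of 254; 23.9 to 35.0) and 3.91% of the other unthresholded peaks, with 4.72% over all nuclear pooled peaks. The difference from thresholded peaks was −14.5 points (−21.2 to −8.12), and from the other unthresholded ones 10.7 points (7.61 to 14.4). By class, tRNA genes were near 36 below-threshold and 38 thresholded peaks, a difference of −6.35 points (−11.8 to −1.41). Genes of snoRNAs, which guide modification of other RNAs, were near 14 below-threshold and 24 thresholded peaks (difference −6.10 points, −10.5 to −2.37). Genes of snRNAs were near 5 below-threshold and 10 thresholded peaks (difference −2.74 points, −5.97 to −0.36). Micro RNA genes were near 7 below-threshold and 2 thresholded peaks, and this difference of 0.89 points had an interval of −1.32 to 2.72. From the other unthresholded peaks the micro RNA difference was 1.22 points (0.35 to 2.97), and at pooled ranks of 281 to 1000 it was 2.26 points (0.35 to 5.25), on few peaks. For each other class the interval at those ranks included 0. Over all nuclear pooled peaks the shares were 2.67% for tRNA, 1.27% for snoRNA, 0.32% for snRNA and 0.50% for micro RNA genes. Summits inside a short RNA gene made up 4.31% of below-threshold, 12.2% of thresholded and 0.91% of other unthresholded peaks.

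The strongest below-threshold peaks near short RNA genes were at tRNA genes. The peak inside F42D1.t1 had a signal of 27.2 in the pool, 11.4 (rank 1351) in replicate 1 and 12.7 (rank 298) in replicate 2. The peak inside K06A4.t1 had 27.1 in the pool, 16.8 (rank 337) in replicate 1 and 8.82 (rank 1273) in replicate 2, the opposite order of ranks. The peak 9 bp from C06G1.t1 had 27.04 with ranks of 485 and 667 and replicate summits 3 bp apart. That 23 bp from R11.t1 had 26.7 with ranks of 1327 and 112. The others of the strongest 10 were at the tRNA genes T14F9.t1, F15B9.t1 and F41D9.t3, at the snoRNA genes C27H5.9 and C27H5.10 in an intron of pdl-1, at W01C9.6, also a snoRNA gene, and 303 bp from cel-mir-4929 at E01G4.3. Their pooled signals were between 25.1 and 26.2.

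The 7 below-threshold peaks near micro RNA genes, named here after their values were seen, included 1 that was 443 bp from cel-mir-241, a let-7 family micro RNA that acts in larval stage timing. It had 23.5 in the pool, 13.2 (rank 781) in replicate 1 and 20.9 (rank 70) in replicate 2. The peak 292 bp from cel-mir-54, in an intron and beside a stronger peak, had 22.5 in the pool with ranks of 78 and 407. The other 5 were near cel-mir-4929, cel-mir-2, cel-mir-1824, cel-mir-4936 and cel-mir-5549, with pooled signals between 18.9 and 25.6.

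Coding exons held a smaller share of below-threshold than of other unthresholded summits. Summits were intergenic in 51.2% of below-threshold, 55.5% of thresholded and 38.2% of other unthresholded peaks, and intronic in 26.3%, 20.1% and 31.7% of the same sets. The coding exon share was 6.94% of below-threshold, 2.76% of thresholded and 19.8% of other unthresholded summits. At pooled ranks of 281 to 1000 it was 2.48% of below-threshold and 5.24% of other unthresholded summits, and this difference of −2.76 points had an interval that includes 0 (−5.49 to 0.52). The difference from thresholded peaks was 4.18 points (0.69 to 7.36). Without the peaks beside a stronger one the below-threshold share was 4.24%, and the difference from thresholded peaks, 1.48 points, had an interval that includes 0 (−1.86 to 4.82). No below-threshold summit lay near an rRNA gene or in a pseudogene. By the limit of 3 counts for a count of 0, 0 of 418 allows a share of up to 0.718%. The Wilson upper limit is 0.911%. An rRNA gene was near 0 of all 13271 nuclear pooled peaks, so its absence is not particular to these peaks. Pseudogenes held 1.09% of all nuclear pooled summits, 1.14% of other unthresholded and 0 of 254 thresholded ones.

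The X chromosome held a smaller share of below-threshold than of thresholded peaks. It carried 82 of 418 below-threshold peaks (19.6%, 16.1 to 23.7), 72 of 254 thresholded peaks (28.3%, 23.2 to 34.2) and 19.7% of the other unthresholded peaks. The difference from thresholded peaks was −8.73 points (−15.5 to −2.13) and that from the other unthresholded peaks was −0.08 points (−3.68 to 4.05). At pooled ranks of 281 to 1000 it held 20.2% of below-threshold and 24.7% of other unthresholded peaks, a difference of −4.49 points (−10.6 to 2.12). The X chromosome makes up 17.7% of the nuclear length and 13.7% of nuclear protein-coding genes. Chromosome II held the most below-threshold peaks, 89 (21.3%), and chromosome IV the fewest, 49 (11.7%). Chromosome II held 18.9% of thresholded and 16.2% of all nuclear pooled peaks and makes up 15.2% of the nuclear length. Chromosome IV held 12.99% of thresholded and 15.6% of all nuclear pooled peaks and makes up 17.4% of that length. A difference from thresholded peaks was not detectable for chromosome II (2.39 points, −4.01 to 8.42) or chromosome IV (−1.27 points, −6.704 to 3.701).

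In all, 225 of 19973 nuclear protein-coding genes (1.13%) had a below-threshold peak in their promoter window, 160 (0.801%) a thresholded peak, and 4927 (24.7%) any pooled peak. Both kinds of peak were found at 28 genes, which is 12.4% of the genes with a below-threshold peak and 17.5% of those with a thresholded peak. Without the peaks beside a stronger one, 196 genes remained, of which 4 also had a thresholded peak. Most of the overlap in genes thus came from pairs of neighbouring peaks.

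Genes of protein synthesis were among those with below-threshold peaks. Of 85 ribosomal protein genes, 7 (8.24%) had one and 9 had a thresholded peak, with no gene in both counts. All 7 had a peak not beside a stronger one. Over all genes with such a peak, only 4 of 196 (2.04%) also had a thresholded peak, so this lack of overlap is not particular to the list. The 7 were rps-15, rpl-14, rpl-31, rpl-23, rps-1, rpl-41.2 and rps-19. The strongest, 387 bp upstream of rps-15, had a pooled signal of 24.97 with ranks of 344 and 1349, and that 313 bp upstream of rpl-14 had 24.7 with ranks of 519 and 611. Of 42 translation factor genes, 4 (9.52%) had a below-threshold peak and 2 a thresholded one. Besides eef-1A.2, these were eif-3.C (21.8, ranks 1038 and 769), an initiation factor gene, and the elongation factor genes eef-1A.1 (18.9, ranks 688 and 809) and eef-2 (17.1, ranks 1024 and 1258). Among 31 aminoacyl-tRNA synthetase genes, tars-1 (24.6) and mars-1 (21.4) had one, and 2 other genes of the list had a thresholded peak. Any pooled peak was found at 74.1% of ribosomal protein genes, 47.6% of translation factor genes and 35.5% of synthetase genes, against 24.7% of all genes.

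Among transcription factor genes, below-threshold peaks were at 4 of 274 nuclear hormone receptor genes (1.46%) and thresholded peaks at 1. These receptor genes were nhr-66, nhr-12 (25.7, ranks 468 and 1211), nhr-3 (19.5, ranks 1023 and 1305) and nhr-1 (14.8, ranks 1480 and 329). The share is near the 1.13% of all genes. Of 106 genes for bHLH, GATA, T-box, forkhead and bZIP factors, 6 (5.66%) had a below-threshold peak and 1 a thresholded one. The strongest lay 134 bp upstream of jun-1, a Jun homologue (26.3, ranks 694 and 193). The others were crh-2, a CREB-related gene (24.8), zip-2, a bZIP gene of pathogen responses (23.4), mdl-1, a Mad-like bHLH gene (21.5), hif-1, the hypoxia-inducible factor (19.1), and hlh-11 (14.2). None of 96 homeobox genes had one, which is near the 1.13% of all genes for a list of this size, and 1 had a thresholded peak.

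Heterochronic genes, whose products time the events of larval development, had the highest share of any list: 5 of 15 (33.3%) had a below-threshold peak and 2 a thresholded one. The nhl-2 peak is given above. The lin-66 peak, upstream of its gene, had a pooled signal of 26.1 with ranks of 378 and 1575. The peak 733 bp upstream of lin-14, a transcription factor gene repressed by the lin-4 micro RNA, had 19.1 with ranks of 1180 and 364. At dre-1, an F-box gene, the peak lay beside a stronger one, with 15.7 and ranks of 469 and 1630. At lin-42, the Period homologue and the only gene of the 5 with a thresholded peak too, it had 12.7 with ranks of 309 and 1694. These genes have a median of 2 distinct annotated 5′ ends, against 1 over all genes, and 13 of the 15 had some pooled peak. The length of sequence that their windows cover was not measured. The part of the number of 5′ ends in their share was not tested.

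Mitochondrial and proteostasis genes also had below-threshold peaks, in shares to be read against the 1.13% of all genes. Of 73 nuclear genes of the respiratory chain, 5 (6.85%) had a below-threshold peak and 2 a thresholded one. Besides atp-2, these were atp-1, the alpha subunit of ATP synthase (23.9), nduf-9, of complex I (20.7), cyc-2.1, a cytochrome c gene (20.5), and cox-5A, of cytochrome c oxidase (18.5). Any pooled peak was found at 53.4% of respiratory chain and 51.4% of chaperone genes, against 24.7% of all genes. Of the 70 chaperone genes, 4 (5.71%) had a below-threshold peak, and 2 had a thresholded peak. These were pfd-1, a prefoldin subunit gene (23.7), enpl-1, the endoplasmic reticulum Hsp90 (21.6), dnj-20 (20.1) and dnj-14 (15.4). Ubiquitin and proteasome genes had 2 of 105 (1.90%), pas-5 and ufd-2, a share near that of all genes, and 3 with a thresholded peak. Single genes were found among the 22 vacuolar ATPase genes (vha-3, 22.1), the 47 splicing factor genes (snr-4) and the 149 lipid metabolism genes (ech-1.2, 23.2), where it was 0.67% of the list. The 49 actin, tubulin and muscle genes had act-1 (19.4) and tba-2. Of 81 histone genes, 2 (2.47%) had a below-threshold peak. The annotation gives both the same symbol, his-14, and several histone gene IDs share a symbol. The peaks of these 2 genes overlapped each other and rested on the same replicate peaks, of ranks 699 and 1992. The second rank is close to the edge of the rule.

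**Figure D4:**
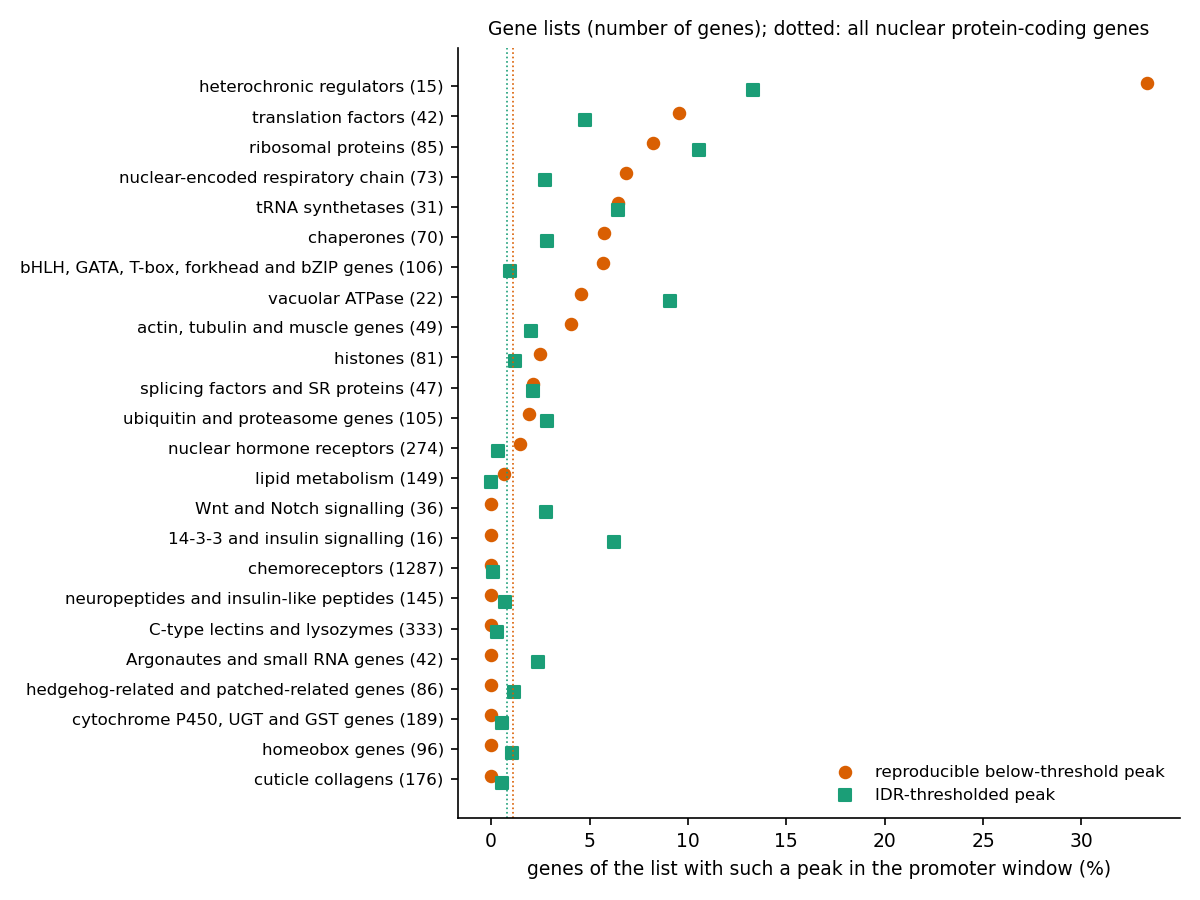
Share of each list's genes in % (x) with a below-threshold peak (circles) or a thresholded peak (squares) in the promoter window, for 24 gene lists (y, number of genes in brackets); dotted lines mark the shares over all nuclear protein-coding genes, 1.13% and 0.801%. Heterochronic genes have the highest share of below-threshold peaks, 33.3% of 15 genes, and 10 lists have none.

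No below-threshold peak was found in the promoter windows of 1287 chemoreceptor genes, 333 C-type lectin and lysozyme genes, 189 cytochrome P450, UGT and GST genes, 176 cuticle collagen genes, 145 neuropeptide genes or 86 hedgehog-related genes. The same held for the 42 Argonaute and small RNA genes, the 36 Wnt and Notch genes and the 16 genes of 14-3-3 and insulin signalling. Over all genes the share was 1.13%, and a count of 0 is near that share for the lists of 86 genes or fewer. Each of these 9 lists had 1 gene with a thresholded peak. Any pooled peak was found at 11.3% of chemoreceptor genes and 18.8% of collagen genes, below the 24.7% of all genes.

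Summit sequence was richer in G and C than the flanks, less so than in thresholded peaks. The window of 50 bp to either side of the summit had a median of 41.6% G and C in below-threshold peaks (39.6 to 42.6), 45.5% in thresholded peaks (44.6 to 46.5) and 36.6% in the other unthresholded peaks. Compared with the mean of 2 windows centred 300 bp to either side, the summit was higher by a median of 3.96 points in below-threshold peaks (2.48 to 5.45), 9.41 points in thresholded peaks (7.92 to 10.9) and 0.99 points in the others. In peaks beside a stronger one the summit exceeded the flanks by 0.99 points (−2.48 to 3.47), against 5.45 points (3.47 to 7.43) in the 283 others. Among those 283 the median was 6.93 points (3.96 to 9.41) in the 188 peaks that overlapped no other and 2.97 points (0.50 to 7.43) in the 95 beside weaker peaks only, whose interval overlaps that of the peaks beside a stronger one. At pooled ranks of 281 to 1000 the summit excess was 5.69 points (3.47 to 7.92) in below-threshold and 5.45 points (3.96 to 6.93) in other unthresholded peaks, with overlapping intervals. Single peaks varied widely, from 52.5% against 19.3% in the flanks at tag-340 and nhl-2 to 31.7% against 49.5% at aex-5.

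**Figure D5:**
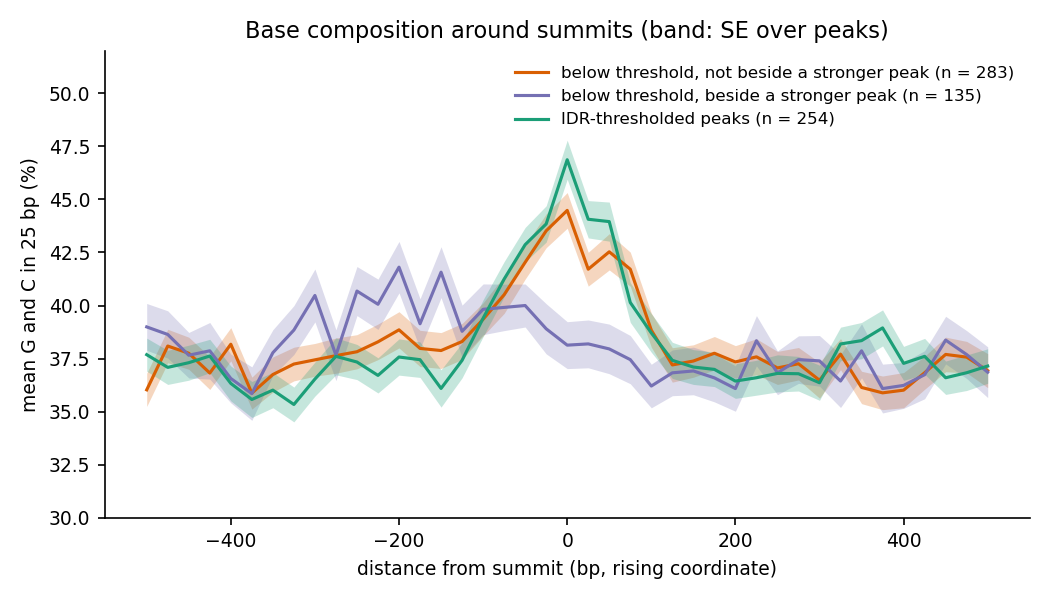
Mean G and C content in 25 bp windows in % (y) by distance from the summit in bp (x, rising coordinate) for below-threshold peaks not beside a stronger peak (283), below-threshold peaks beside one (135) and thresholded peaks (254); bands are standard errors over peaks. The first and the last set rise at the summit, and the peaks beside a stronger one have their higher values to the left of it.

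Among the 18 motifs searched on both strands of the summit windows, the hexamer CACGTG, bound by many bHLH factors, had a higher share in below-threshold windows than in either other set. It was in 23 of 418 below-threshold windows (5.50%, 3.69 to 8.12), 2.36% of thresholded (1.09 to 5.06) and 1.73% of other unthresholded windows (1.52 to 1.97). The interval of the below-threshold share overlaps that of the thresholded peaks. The hexamer was in 2.39% of the flanks of below-threshold peaks and in 1.79% of promoters of all nuclear genes, taken as windows of the same length. At pooled ranks of 281 to 1000, 6.61% of below-threshold (4.11 to 10.5) and 2.52% of other unthresholded windows (1.44 to 4.35) held it, with overlapping intervals. Of the 23 windows, 9 were in promoter windows and 2 also held GAGAGA. By neighbours, 9 belonged to the 135 peaks beside a stronger one (6.67%) and 14 to the 283 others (4.95%). Among those printed, calu-1 encodes a calumenin and had 24.1 in the pool with ranks of 122 and 369. The calu-1 peak lay beside a stronger one, so these ranks can be those of its neighbour. The peak at pkg-2, a cGMP-dependent protein kinase gene, had 23.4 with ranks of 110 and 1238.

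Other motifs were shared with the thresholded peaks. GAGAGA was in 18.7% of below-threshold (15.2 to 22.7), 20.5% of thresholded and 9.19% of other unthresholded windows, with 10.8% in the flanks of below-threshold peaks and 8.42% of all promoters. The GC box GGGCGG was in 5.50% of below-threshold, 6.69% of thresholded and 2.45% of other windows, and 2.55% of all promoters. CTGCGTCT was in 3.83% of below-threshold (2.37 to 6.13), 5.91% of thresholded and 1.74% of other windows, and 1.48% of all promoters. In peaks of pooled rank 281 to 1000, GAGAGA was in 21.1% of below-threshold and 17.2% of other unthresholded windows, and CTGCGTCT in 4.13% and 2.94% of the same sets.

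Of 4 hexamers known from nuclear receptor sites, 3 had a lower share at below-threshold summits than in the flanks. AGGTCA, the core of many receptor sites, was in 10 below-threshold windows (2.39%, 1.30 to 4.35), 1.97% of thresholded and 3.03% of other windows, with 2.87% in the flanks and 2.84% of all promoters. AAGTCA was in 2.87% of below-threshold, 3.15% of thresholded and 4.64% of other windows, with 5.26% in the flanks of below-threshold peaks. AGTTCA was in 6.94% of below-threshold, 3.94% of thresholded and 6.20% of other windows, with 8.49% in those flanks. GGGTCA was in 2.39% of below-threshold, 3.15% of thresholded and 1.72% of other windows, with 2.15% in those flanks. The differences from the flanks were not tested. The T run TTTTTT was in 30.9% of below-threshold windows, 22.05% of thresholded and 38.2% of other ones. The B-box core GTTCGANTC of tRNA genes was in 6 below-threshold windows (1.44%), 5 of them near a tRNA gene, and in 4.33% of thresholded windows and 0.17% of all promoters. TATAAA was in 6.22% of below-threshold, 11.8% of thresholded and 10.1% of other windows, and 13.4% of all promoters. A match describes these letters in these windows only.

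Replicate summits were farther apart under below-threshold than under thresholded peaks. The summits of the overlapping replicate peaks were a median of 123 bp apart (105 to 139) in below-threshold peaks, 48.5 bp (42 to 55) in the 250 thresholded peaks with an overlapping peak in both replicates and 128 bp (124 to 133) in the 6114 such other unthresholded peaks. Below-threshold peaks were chosen by overlap, which limits how far apart these summits can lie. Single peaks ranged from 0 to 665 bp, with 1 bp at atp-2 and 409 bp at plin-1. The median was 101.5 bp (88 to 126) in the 188 peaks that overlapped no other, 189 bp (145 to 228) in the 95 beside weaker peaks only and 109 bp (91 to 151) in the 135 beside a stronger one. At pooled ranks of 281 to 1000 it was 96.5 bp (83 to 110) in below-threshold peaks and 66 bp (56 to 79) in the 415 other unthresholded peaks with an overlapping peak in both replicates.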

How the data were processed

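The files were peak lists, without reads, on builds ce11 and ce10. The aligner, peak caller, versions and value scaling were not given in the sources used here; controls were not analysed here. The authors deposited a signal value per peak, the caller's enrichment measure, and here it ranks and describes peaks inside one list. They also deposited a minus log10 q-value, printed at the threshold only, and a summit offset, which added to the peak start gives the summit. No file gives read counts, so depth is unknown and intervals cover counting error over peaks only.

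Positions count from 1. The main build was ce11, with the Ensembl 115 annotation and the RefSeq genome WBcel235; the ce10 lists were an alternative and positions were never converted. For each below-threshold peak, the overlapping replicate peak of highest signal gave its replicate signal, rank and summit. Gene lists were matched on symbols, counting every gene ID with a matching symbol. Shares carry 95% Wilson intervals, differences 95% Newcombe intervals and medians 95% order-statistic intervals; no p-value was computed, since there is 1 group and the rule used these values. The overlap step was checked on the replicate peaks against the tool bedtools. The promoter window was checked at positions planted around annotated 5′ ends. The difference interval and the motif search were tested on simulated data. Alternatives were the number of replicate peaks taken, the overlap, merging, windows, build and leaving out each replicate. Python 3.11.15, pandas 2.3.3, NumPy 2.4.6, SciPy 1.17.1 and matplotlib 3.10.9 were used.

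The peaks, the 24 gene lists and the 18 motifs were chosen with earlier results of these data known. Named genes are those of the 20 peaks of highest pooled signal, the 10 of best worse replicate rank, up to 3 per gene list, those at the 10 strongest peaks near short RNA genes and those at the edges of the rule. Further list genes were added so that each count could be read, and the patterns for synthetases, histones, actins and tubulins were corrected after values were seen. The split by stronger neighbours, the comparison at pooled ranks of 281 to 1000 and the names of micro RNA genes were also chosen after values were seen.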

Additional observations from a re-analysis of the deposited data

How the results depend on the processing

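The number of below-threshold peaks depended on the rule: it was 166 with the top 1000 of each replicate, 651 with the top 3000, and 1675 to 1940 with either replicate left out, against 418. In these larger sets from 1 replicate the promoter share was 44.4 to 46.5% and the short RNA share 9.19 to 10.4%, against 53.3% and 14.6%. Without replicate 1 the median summit G and C content was 37.6%, and without replicate 2 it was 39.6%, against 41.6%; in a window of 25 bp on each side it was 43.1%. A promoter window of 500 bp upstream to 100 bp downstream gave 33.7%, and one of 2000 bp upstream gave 65.3%; thresholded peaks gave 35.0% and 62.2% in the same windows. The distance between replicate summits was 104 bp with the top 1000 and 94 bp with an overlap of at least 50% of the pooled peak, against 123 bp. The X chromosome share stayed within its interval under every alternative tried for it. Of all alternative values 42 stayed within the interval, or within 1.5 times the count, and 14 did not; requiring no overlap with a stronger pooled peak, an alternative chosen after seeing the data, left 283 peaks. No paired analysis was possible because the series has 1 group. Depth limits all statements: without read counts, a peak's absence from a list cannot be told from low coverage.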
